A study of Mus musculus with 62 samples.

Results

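Tissue factor and the plasminogen activators form 2 linked systems of proteases at the cell surface, and 9 of their genes were described here across single cultured pancreatic cancer cells. The genes were F3, Tfpi, F2rl1, Thbd, Plat, Plau, Plaur, Serpine2 and Serpinb2. They were chosen by name with earlier levels and components of the same libraries known, so their levels are given as a description with no test. All 9 had a row among the 19112 gene rows of the count table.

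The cells were KPC1199-EGFP, a mouse pancreatic cancer line on a C57BL/6 background that expresses EGFP and, in the wider study, gives rise to tumours when injected into the pancreas of syngeneic mice. They were grown untreated as an adherent culture at passage 9 in medium with 10% foetal bovine serum, trypsinised, and captured on a Fluidigm C1 chip, a system that aims at 1 cell per library. Whether each of the 62 libraries held 1 intact cell was not tested. All came from 1 culture of 1 line, with no second condition, so no group was compared with another and no p-value was computed.

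ERCC spike-ins, synthetic RNAs added to each reaction, took 0.190% to 1.83% of counts in 50 libraries and 22.3% to 97.2% in the other 12. Levels below refer to the 50 libraries, which were selected on a spike-in share under 20%. They held 2153900 to 12868800 gene counts each and 6832 to 11068 genes above 0, against 892 to 9041 genes in the 12. Of 7 epithelial markers, Krt8, Krt18, Krt19 and Cdh1 were above 0 in 50 of 50 cells, Krt7 in 49, Sox9 in 42 and Epcam in 18. Of the 7 endothelial markers 6 were at 0 in all 50 cells, among them Pecam1 and Cdh5, and Egfl7 was above 0 in 20. Of 4 measured platelet markers Itga2b and Gp1ba were at 0 in all 50, Pf4 was in 2 and Ppbp in 9. Of 6 myeloid markers Adgre1, Csf1r and Lyz2 were at 0 in all 50, Ptprc was in 1 and Cd68 in 10. Itgam was in 23 at no more than 1.82 CPM. The summed level of the endothelial list ranged from 0 to 215 CPM, that of the myeloid list from 0 to 33.5 CPM and that of the platelet list from 0 to 49.96 CPM. For the fibroblast list the range was 0 to 75.02 CPM, with Col1a2, Dcn and Lum at 0 in all 50, Col3a1 in 1, Pdgfra in 2 and Col1a1 in 41 at no more than 1.01 CPM. Of 4 mesothelial markers Msln was in 46 cells at a median of 142 CPM, and Upk3b, Wt1 and Lrrn4 were at 0. The part of other cell types in the levels below was not tested.

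As background, tissue factor, the product of F3, is a transmembrane receptor for coagulation factor VIIa and starts the extrinsic pathway that ends in thrombin. Tissue factor pathway inhibitor, encoded by Tfpi, blocks the complex once factor Xa has formed, and thrombomodulin, encoded by Thbd, turns bound thrombin into an activator of protein C. Plasminogen activation runs beside it: tissue-type activator (Plat) and urokinase (Plau) cut plasminogen into plasmin, and the receptor encoded by Plaur holds urokinase on the membrane. Protease nexin-1 (Serpine2) and plasminogen activator inhibitor 2 (Serpinb2) are serpins that inhibit these enzymes. Pancreatic carcinoma is known for tissue factor expression and for thrombosis in patients.

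The promoters of F3 and Plaur are shown because the messages of both were found in every cell. Serpinb2 is shown beside them as a gene at 0. RefSeq promoter windows of GRCm38.p6, 300 bases long and spanning the gene start, were available for 5 of the 9 genes. The 160 bases just before the gene start are printed 5′ to 3′ on the plus strand, with capitals for matches to the motifs searched. The counts were made on build mm9, so these coordinates are not those of the counting.
F3 (GRCm38.p6, chr3:121723377-121723536): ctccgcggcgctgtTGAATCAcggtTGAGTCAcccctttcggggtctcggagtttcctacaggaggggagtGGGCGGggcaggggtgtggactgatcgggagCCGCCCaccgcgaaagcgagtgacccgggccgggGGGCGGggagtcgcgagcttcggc
Plaur (GRCm38.p6, chr7:24462323-24462482): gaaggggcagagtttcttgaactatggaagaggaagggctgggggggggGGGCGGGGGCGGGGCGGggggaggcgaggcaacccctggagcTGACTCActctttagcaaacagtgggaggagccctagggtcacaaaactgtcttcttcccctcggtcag
Serpinb2 (GRCm38.p6, chr1:107511263-107511422): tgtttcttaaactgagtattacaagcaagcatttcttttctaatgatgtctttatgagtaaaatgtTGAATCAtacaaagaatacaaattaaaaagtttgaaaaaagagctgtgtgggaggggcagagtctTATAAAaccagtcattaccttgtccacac

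F3 held 2 matches to the AP-1 motif TGANTCA, which begin 146 and 135 bases before the gene start, 3 to the GC box GGGCGG and a TATAAA 43 bases after the start. Plaur held 1 AP-1 match, 69 bases before the start, and 3 GC boxes, of which 2 overlap by 1 base. Serpinb2, which was at 0 in every cell, also held an AP-1 match, 94 bases before its start, and a TATA box (TATAAA) at 29 bases. Both strands were searched in the full windows of 300 bases. AP-1 matches occurred in 7.81% of all 32851 RefSeq windows, GC boxes in 35.7%, TATA boxes in 13.6%, the E-box CACGTG in 7.15%, the cyclic AMP response element TGACGTCA in 1.79% and the serum response CArG box in 1.63%. Serpine2 and both windows of Tfpi had 0 AP-1 matches. A match is a run of letters and not a site shown to be bound.

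The culture expressed the F3 and Plaur messages in every cell and Plat in most, while both serpins were at 0 and Tfpi and Thbd were found in few cells. A count above 0 in at least 50% of the 50 cells was seen for 5 of the 9 genes and for 48.6% of all gene rows. With detection set at 1 CPM the count was 4, beside 42% of all rows, and at 10 CPM it was 3, namely F3, Plaur and Plat, beside 33.4%. These shares lie close to those of all rows, so detection as such did not set the 9 genes apart. The counts for Plau and F2rl1 have a further limit, which is given with their values.

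**Figure D1:**
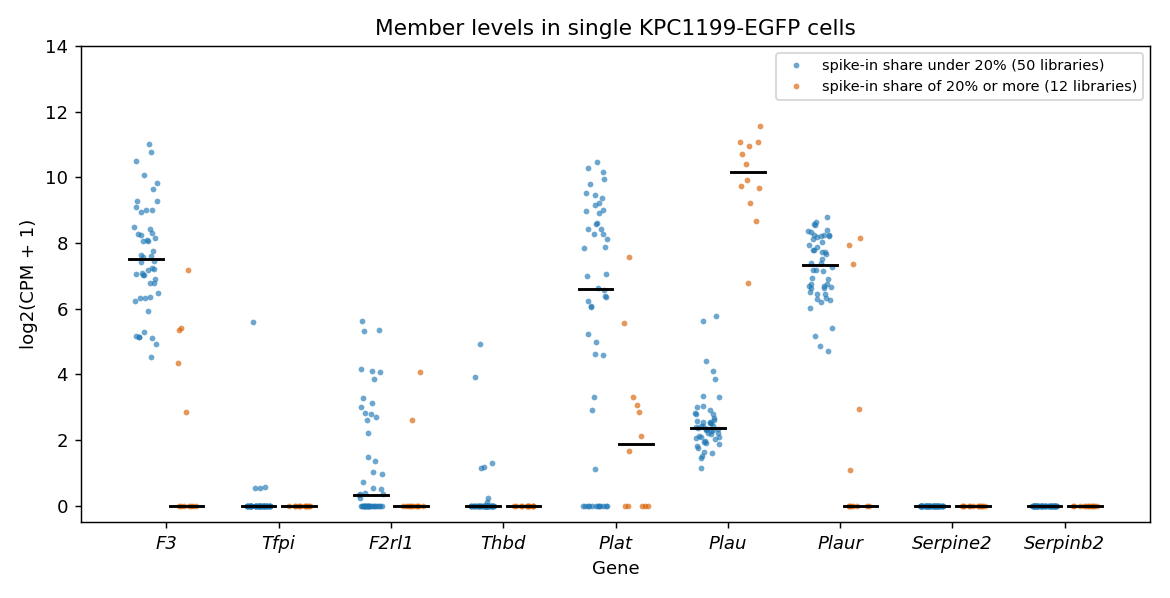
Level of each gene as log2(CPM + 1) on the vertical axis, with 1 point per cell, blue for the 50 libraries low in spike-ins and orange for the other 12; black bars are medians. F3 and Plaur are above 0 in all blue points, Plat spreads from 0 to 10.47, and the orange points of Plau all lie above its blue points. The 12 libraries held fewer gene counts, and the share of all gene rows with such a gap was not computed.

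Tissue factor, the receptor that starts coagulation, was encoded by a message present throughout. F3 was above 0 in 50 of 50 cells (100%, exact Clopper-Pearson 95% interval 92.9 to 100, which covers the sampling of cells only). Its lowest level was 22.3 CPM in library 22, the median was 182 CPM and the highest was 2081 CPM in library 42. On the log2(CPM + 1) scale this was a mean of 7.59 ± 1.58 (SD, n = 50 cells). The fewest counts were 122, in library 58, so no cell was close to the counting floor of 3. The spread was skewed upward: 37 of 50 cells reached 100 CPM, and the 5 highest cells held 42.1% of the summed CPM. Libraries 42, 36 and 1 led with 2081, 1743 and 1439 CPM.

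F3 was also among the most variable rows for its level. The residual of its squared coefficient of variation over the trend with mean level was 3.24 on the log2 scale, rank 33 of 12012 genes above 0 in at least 10 of the 50 cells. Plat followed at 3.12 and rank 40. Plaur stood at 0.49, rank 2907, F2rl1 at -0.03 and Plau at -0.92. In this culture, then, the receptor gene F3 and the activator gene Plat varied far more between cells than Plaur at a similar level.

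The genes for the partners of F3 in initiation and its control were low. Tfpi was above 0 in 4 of 50 cells (8%, interval 2.22 to 19.2). In library 24 it reached 47.4 CPM on 610 counts, and in libraries 31, 36 and 48 it stood at 0.465, 0.464 and 0.486 CPM on 5, 1 and 3 counts. A clear Tfpi signal was thus seen in 1 cell. F3 exceeded Tfpi in 50 of 50 cells per kilobase of coding length, and by more than 2-fold in each of them. Library 24 held F3 at 172 CPM, near the median of the culture.

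Thbd, whose product diverts thrombin towards protein C activation, was above 0 in 7 of 50 cells (14%, interval 5.82 to 26.7). It reached 29.6 CPM in library 26 on 137 counts and 14.01 CPM in library 59 on 81 counts. The other 5 cells lay between 0.0777 and 1.49 CPM on at most 16 counts. After thinning to 1000000 gene counts per cell, 4 of the 7 remained above 0.

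F2rl1 encodes protease-activated receptor 2, a G protein-coupled receptor opened by trypsin-like proteases, among them the tissue factor and factor VIIa complex. It was above 0 in 27 of 50 cells (54%, interval 39.3 to 68.2), with a median of 0.268 CPM and a highest value of 48.6 CPM in library 40. At 1 CPM it was found in 18 cells and at 10 CPM in 7. Libraries 55 and 31 followed library 40 at 40.1 and 38.95 CPM. Across all 62 libraries F2rl1 was above 0 in 29, and in 26 of these its value was not a whole number within 1e-06. Its values under 1 CPM are not read as expression here.

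Plat, the tissue-type plasminogen activator, spread from absence to high levels. It was above 0 in 38 of 50 cells (76%, interval 61.8 to 86.9), at a median of 96.5 CPM and a highest value of 1413 CPM in library 33. It was at 0 in the other 12. Among the 50 libraries, the 6 with the highest spike-in shares (1.37% to 1.83%) and the 5 with the fewest genes above 0 (6832 to 7612) all had Plat at 0. The part of RNA content or capture in these zeros was not tested. Of the 38 cells above 0 35 passed 10 CPM and 24 passed 100 CPM, so values between 0 and 10 CPM occurred in 3 cells. The mean was 5.68 ± 3.76 on the log2 scale, the widest SD of the 9 genes. The 5 highest cells held 40.02% of the summed CPM.

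Plaur, the urokinase receptor, was above 0 in 50 of 50 cells and was more even. Its lowest level was 25.5 CPM in library 58, its median was 159 CPM and its highest was 439 CPM in library 15. The mean was 7.24 ± 1.01 on the log2 scale, and the 5 highest cells held 20.8% of the summed CPM. In 35 of 50 cells it reached 100 CPM. The message of the urokinase receptor was thus seen in all 50 cells, and its protein was not measured.

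Plau, the gene of urokinase itself, was above 0 in every library but at low level. In the 50 cells it ranged from 1.21 to 53.8 CPM with a median of 4.13 CPM, and 5 cells reached 10 CPM. Libraries 24 and 32 stood apart at 53.8 and 47.9 CPM, followed by library 25 at 20.3 CPM. Plaur exceeded Plau by more than 2-fold in 50 of 50 cells per kilobase of coding length. In the 12 spike-in-rich libraries, however, Plau ran from 110 to 3014 CPM with a median of 1161 CPM, so the 2 sets did not overlap in CPM. The 12 held only 112196 to 1133750 gene counts each. In counts the sets did overlap, at 3.07 to 692 in the 50 and 124.6 to 721 in the 12. The share of all gene rows without overlap in CPM was not computed, so the gap is not read as a trait of Plau. In the 12 the median was 0 CPM for F3 and for Plaur.

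Counts of Plau did not behave like those of its receptor gene. Over all 62 libraries the log2 count of Plau was positively correlated with the log2 spike-in count (r = 0.817, rho = 0.651), and that of Plaur negatively (r = -0.784, rho = -0.277). Much of both values is the gap between the sets of 50 and 12. Within the 50 cells Plau had r = 0.429 with spike-in counts and 0.533 with gene counts, and Plaur had 0.347 and 0.549. Within the 12 Plau had r = 0.371 and Plaur -0.641 with spike-in counts. All of these are descriptions of libraries from 1 chip, with no p-value.

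**Figure D2:**
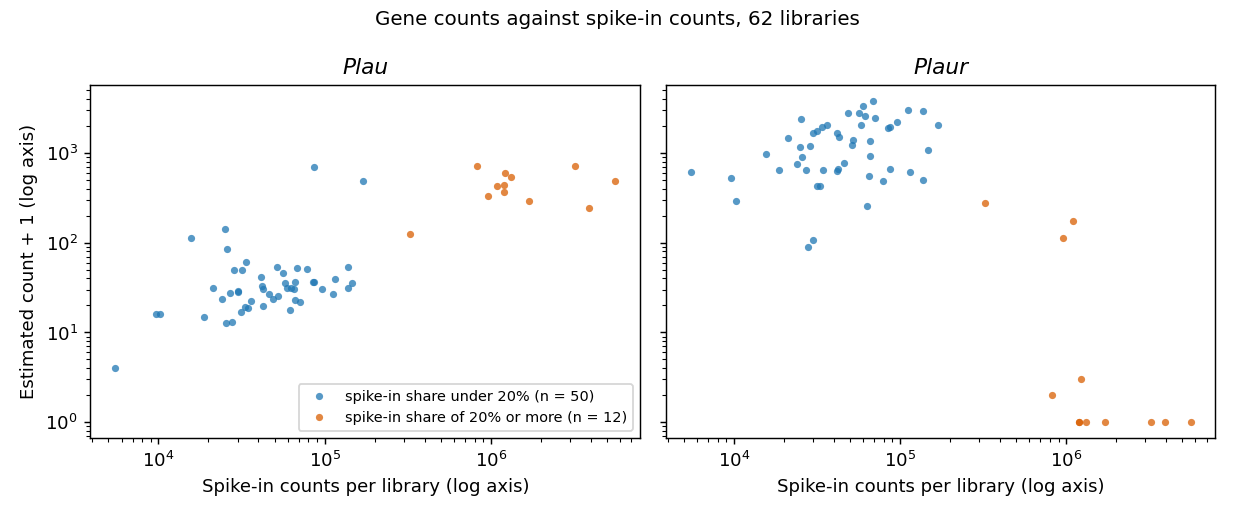
Estimated count plus 1 of Plau (left) and Plaur (right) on a log axis against the spike-in count of the same library on a log axis, 1 point per library for 62 libraries, blue for the 50 low in spike-ins and orange for the other 12. Orange points lie between 124.6 and 721 counts for Plau, while for Plaur 7 of the 12 orange points are at 0.

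The sequence of Plau was read beside those counts. Its value was not a whole number in 62 of 62 libraries, as kallisto gives where reads fit transcripts of more than 1 gene, while F3, Plat, Plaur, Tfpi and Thbd held whole numbers in every library. In the GENCODE M21 transcripts, which may differ from those the authors counted on, Plau contains an unbroken run of 38 T bases, and 11 of its 2305 words of 31 bases also occur in transcripts of 221 other genes. F2rl1 has 14 such words among 2702, of which 7 are made of 1 or 2 dinucleotides, and they occur in 2720 other genes. Plaur has 5 among 1476, and F3, Tfpi, Thbd, Plat, Serpine2 and Serpinb2 have 0. After these values were seen, all gene rows were searched for a run of 31 T bases. Of the 48 rows with one, 27 (56.3%) were above 0 in all 12 spike-in-rich libraries, against 240 of 17482 matched rows (1.37%). Plau is itself among the 48 and the 27, and the 17482 include the 48. The search was prompted by Plau, so these counts are a description and test no cause. For a run of 31 A bases the count was 15 of 48 (31.3%), and for a TG run of 31 bases it was 23 of 892 (2.58%). Among 16500 rows with none of these runs it was 177 (1.07%). Whether Plau reads came from the urokinase message was not tested, so its presence in 50 of 50 cells is not read as expression here. Libraries 24 and 32, at more than 10 times the median, were the highest for Plau. Library 32 also had the fewest genes of the 50 cells, 6832, and a spike-in share of 1.64%.

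Both serpin genes were at 0 in all 62 libraries. For Serpine2 and for Serpinb2, 0 of 50 cells allows up to 6% of cells with a count by the rule of 3 counts, and up to 7.11% by the exact Clopper-Pearson 95% interval. Their coding sequences (1191 and 1245 bases) lie within the range of the 9 genes, 882 to 1731 bases. Neither shares words with other genes in the GENCODE transcripts. Plat was therefore above Serpine2 in 38 of 50 cells, and in the other 12 both were at 0.

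Levels of different genes were set side by side per kilobase of coding length. On that scale the mean of log2(CPM per kilobase + 1) was 7.77 ± 1.59 for F3, 7.27 ± 1.01 for Plaur and 5.13 ± 3.47 for Plat (SD, n = 50). Plau followed at 2.25 ± 0.87, F2rl1 at 1.18 ± 1.63, Thbd at 0.20 ± 0.75 and Tfpi at 0.15 ± 0.82. Neighbours in this order differed by less than the larger of their SDs in every case. F3 was above Plaur in 30 of 50 cells by coding length but in 24 of 50 by transcript length, so the order of the leading pair is not settled. F3 was above Plat in 35 of 50 cells by coding length and in 34 by transcript length.

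The messages of the initiating receptor, the urokinase receptor and the tissue-type activator were present together in most cells. F3, Plaur and Plat were all above 10 CPM in 35 of 50 cells, and F3 and Plaur without Plat in the other 15. Above 100 CPM all 3 were found in 18 cells, F3 and Plaur without Plat in 11, and none of them in 5.

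The levels of F3 and Plaur were weakly correlated. Their r across the 50 cells was 0.350 and their rho 0.352. It was 0.321 without the 2 libraries farthest from the median of F3, and 0.340 within the 8 blocks of 12 label numbers. Against F3, the central 95% of r over the other 9281 genes above 0 in at least 25 cells ran from -0.289 to 0.296, and Plaur ranked 88. Plat had r = 0.275 with F3 and 0.258 with Plaur. Against Plat the central range was wider, from -0.310 to 0.421, and F3 and Plaur lay inside it. Within blocks the r of F3 and Plat was 0.163. These are values over cells that share a culture, a chip and a depth range.

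**Figure D3:**
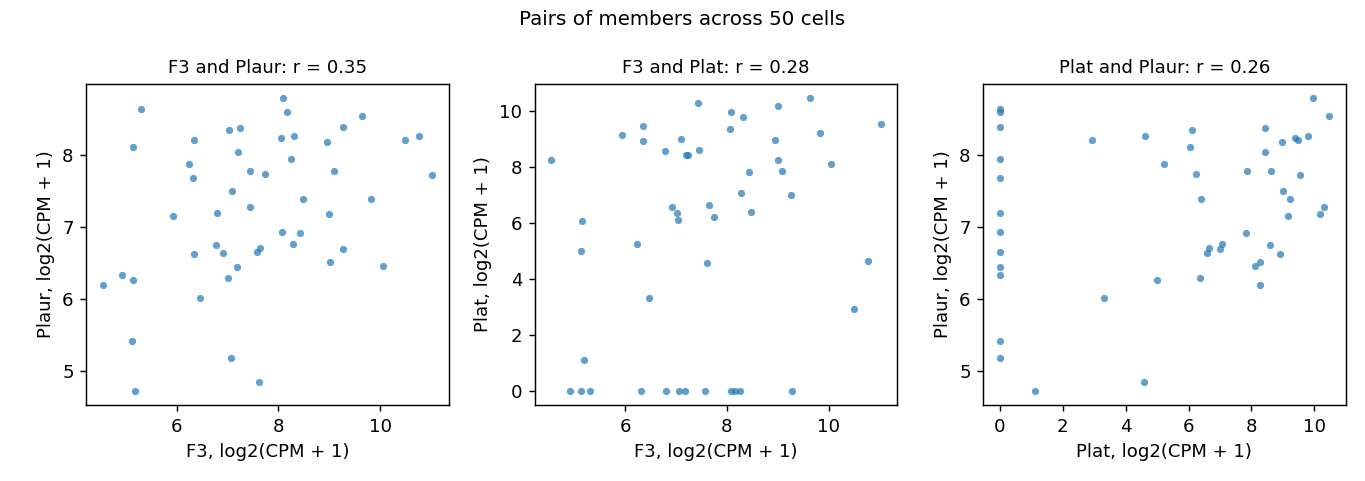
Level of F3, Plaur and Plat against each other as log2(CPM + 1), 1 point for each of 50 cells, with Pearson r above each panel. F3 and Plaur form a loose upward cloud (r = 0.35), and the cells with Plat at 0 line up on its axis at many levels of F3 and Plaur.

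The remaining pairs were weaker or rested on 1 cell. Tfpi and Plau had r = 0.521, the highest of the 21 pairs of the 7 genes above 0. Both were at their highest in library 24, and r was 0.0910 over the other 49 cells. F2rl1 had r between -0.05 and 0.19 with the other genes. Thbd had r between -0.15 and 0.02.

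Over the 50 cells, the r of each gene with each cell readout lay inside the central 95% of all genes above 0 in at least 25 cells. F3 and Plaur had r = -0.062 and 0.011 with a score of 14 immediate early genes across the 50 cells. Some of these genes encode parts of AP-1, whose motif was searched above, and others do not. Whether AP-1 acts on F3 or Plaur was not tested. With a score of 12 output genes of the ERK pathway F3 and Plaur had 0.076 and -0.024. With 9 targets of the YAP coactivator the values were 0.138 for F3, 0.267 for Plaur and 0.255 for Plat, inside the central 95% of 9282 genes (-0.261 to 0.345). F3 and Plaur had negative r with a score of 15 S phase genes, at -0.177 and -0.204, while Plat had 0.293, or 0.121 without the 2 farthest libraries. With a score of 15 genes of G2 and M phase all 3 lay between -0.11 and 0.18.

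Plat had the highest r of these genes with measures of RNA content. It was 0.408 with the number of detected genes (rho = 0.351), and 0.486 within blocks. With the log2 ratio of gene to spike-in counts it was 0.445 (rho = 0.424), 0.559 without the 2 farthest libraries and 0.503 within blocks. For r over the 50 cells, the medians over 9282 genes were 0.166 and 0.154, and the upper ends of the central 95% were 0.453 and 0.463. No such range was computed within blocks or without the 2 farthest libraries. F3 had 0.103 and 0.156 with the same readouts, and Plaur -0.054 and -0.020. The part of RNA content in the spread of Plat was not tested.

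**Figure D4:**
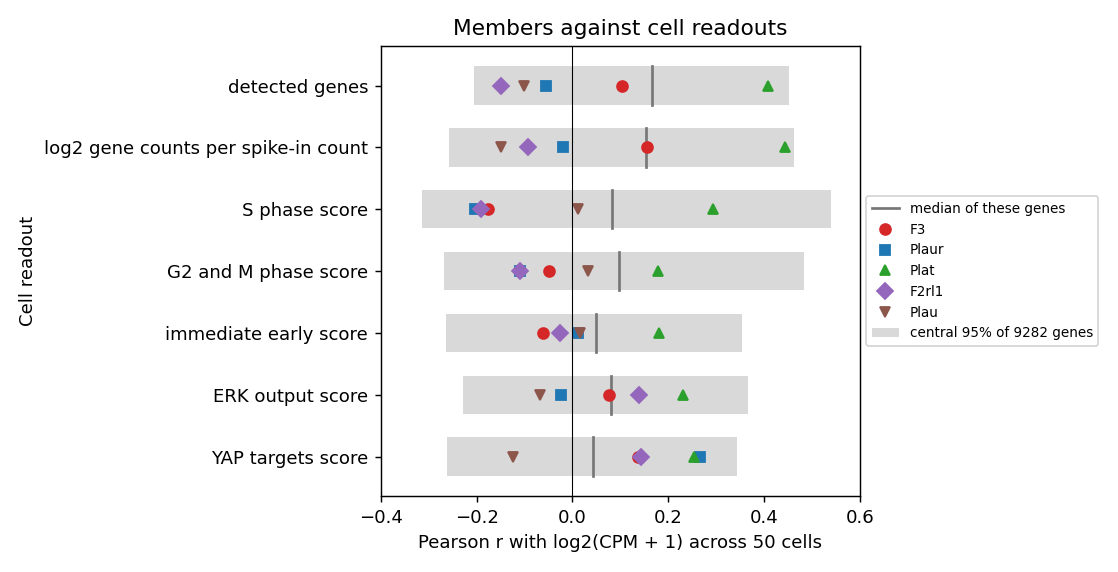
Pearson r across 50 cells between each readout (rows) and log2(CPM + 1) of F3, Plaur, Plat, F2rl1 and Plau (symbols); grey bars span the central 95% of 9282 genes and grey lines their median. Every symbol lies inside its grey bar, and Plat is the rightmost for detected genes (0.408) and for gene counts per spike-in count (0.445).

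Label numbers, a possible technical order, were split into 8 blocks of 5 to 7 cells. Block means of F3 ran from 6.47 to 8.53 on the log2 scale, and blocks held 21.4% of its variance. For Plat the range was 3.98 to 7.33 (12.6%), for Plaur 6.95 to 7.61 (3.60%) and for Plau 2.15 to 2.80 (5.97%).

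The genes most like each of these across cells were read from the 9281 other genes above 0 in at least 25 cells. For F3 they included Mrc1, a mannose receptor (r = 0.627, rho = 0.647) and the noncoding transcript AW112010 (r = 0.548, rho = 0.433). Mrc1 was above 0 in 40 of 50 cells at a median of 39.5 CPM. It is best known from macrophages, and the myeloid markers were mixed, with 3 of 6 at 0 in all 50 cells and Cd68 and Itgam in 10 and 23. Itgam was at no more than 1.82 CPM, and 32 of its values in 62 libraries were not whole numbers. For Plat they were B4galt4, a galactosyltransferase (r = 0.725), the growth factor gene Bmp4 (r = 0.695) and Prkar2b, a regulatory subunit of protein kinase A (r = 0.688). Their rho values were 0.751, 0.717 and 0.632, and within blocks r was 0.695, 0.697 and 0.717. Plat had r = 0.658 with the uroplakin gene Upk1b and 0.553 with the surface antigen gene Ly6a. These 2 genes were set beside Plat with earlier results of the same libraries known, so the values are a description.

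Likeness to Plaur was led by the keratin gene Krt7 (r = 0.558), but r was 0.377 without the 2 libraries farthest from the median of Plaur. Morf4l2 followed at 0.519, or 0.360 without them, and the esterase gene Esd at 0.492 and 0.491. For F2rl1 the leaders were Cwc15, Tnfrsf10b and Higd1a at 0.476, 0.472 and 0.448. For Plau they were Rpl37a, 9130221F21Rik and Rps24 at 0.523, 0.520 and 0.499, of which Rpl37a and Rps24 encode ribosomal proteins. These genes lead because they were ranked on r, so their r values are a description.

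Other genes of coagulation and surface proteolysis were read from 7 lists, in which 61 of 69 genes had a row. Detection in at least 50% of the 50 cells was reached by 22 of the 61, and 20 were in none. Over all 19112 gene rows 9282 (48.6%) reached it and 3984 were in none, and the counts of each list below stand beside that share. The median of their mean levels was 0.19, against 1.13 over all gene rows.

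Genes for the plasma factors that tissue factor acts on were near 0. Of 14 measured coagulation factor and fibrinogen genes, 9 were in none of the 50 cells, and 1, F10, was above 0 in at least 50% of them. F10, the zymogen of factor Xa, was in 36 cells at no more than 2.40 CPM, and 44 of its values in 62 libraries were not whole numbers. F8 reached 11.9 CPM but was above 0 in 2 cells. F7, the ligand of tissue factor, is named with its value known and was in 0 of 50. These factors circulate in plasma and are made mainly in the liver.

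Of 10 measured anticoagulant genes, Anxa5, Procr and Pros1 were above 0 in at least 50% of cells. Anxa5, which binds exposed phosphatidylserine, stood at 10.66 ± 0.41 and ranged from 819 to 2848 CPM. Procr, the receptor that presents protein C to thrombin bound on thrombomodulin, was above 0 in 44 of 50 cells at a median of 21.8 CPM. Its partner Thbd was above 0 in 7. Pros1, the gene of the secreted cofactor protein S, is named with its values known and was in 27 cells at a median of 1.02 CPM. Among the other protease-activated receptors, the thrombin receptor gene F2r was above 0 in 38 of 50 cells at a median of 24.6 CPM and up to 540 CPM. F2rl2 was in 22 cells at no more than 2.67 CPM, and F2rl3 had no row.

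Genes for plasminogen docking were high while the zymogen was not seen. Plg, the plasminogen gene, is named with its value known and was in 0 of 50 cells. Of 8 measured genes of its list 5 were above 0 in at least 50% of cells, led by Anxa2 at 11.18 ± 0.73 and Krt8 at 10.99 ± 0.72. Anxa2 forms a complex with S100a10 that binds plasminogen and tissue-type activator, and its own level ranged from 648 to 7432 CPM. Cell-surface keratin 8 has been described as a plasminogen receptor, and Krt8 ranged from 618 to 5478 CPM.

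Inhibitors and clearance receptors were mixed. Of 9 measured, 6 were above 0 in at least 50% of cells. Serpinb6a, an intracellular serpin, stood at 7.55 ± 0.94 and the receptor chaperone gene Lrpap1 at 4.04 ± 2.51. Of the Serpinb6a values in 62 libraries, 36 were not whole numbers. Serpini1, the neuroserpin that inhibits tissue-type activator, is named with its values known and was in 30 cells at a median of 4.61 CPM and up to 370.2 CPM.

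Membrane proteases and metalloproteinases were detected in part. Of 8 membrane protease genes 2 were above 0 in at least 50% of cells, namely the Kunitz inhibitor gene Spint2 at 7.98 ± 0.80 and the protease gene Tmprss2 at 5.71 ± 2.21. Of the Spint2 values in 62 libraries, 25 were not whole numbers. St14, the matriptase gene, is named with its value known and was in 0 of 50. Of 10 metalloproteinase and inhibitor genes 4 were above 0 in at least 50% of cells, led by the inhibitor genes Timp2 at 7.95 ± 0.69 and Timp1 at 5.21 ± 1.61. For Timp1, 13 values in 62 libraries were not whole numbers.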

How the data were processed

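RNA of 62 single-cell libraries of 1 KPC1199-EGFP culture was read. The table deposited by the authors holds estimated counts for each gene symbol. Per the submitters' processing notes, kallisto was used, with build mm9. The kallisto version, annotation and strand handling are not stated there. Of 19177 rows 65 were spike-ins, left out of library sizes. Altered symbols were restored where known (1092). Counts were used unrounded, except for thinning to 1000000, and scaled to CPM. Levels are log2(CPM + 1). Genes above 0 in at least 10 of 50 libraries entered the variability trend (lowess fraction 0.3), and in at least 25 the likeness ranking. Scores are mean z values over the listed genes. Lengths came from GENCODE M21, and promoters from RefSeq. Protein sequences were not used here, so the planned protein comparison was not run.

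No test was run. The members, lists and summaries were chosen with earlier results of these data known. The named genes are the members, the 2 highest of each list, all receptors of the protease-activated list, the 3 genes most like each widely detected member, and Upk1b and Ly6a. Genes outside this rule, among them F7, Plg, Pros1, Serpini1, St14 and the cell type markers, were named with their values known. Some genes that this rule names are not reported here. Python 3.11.15, numpy 2.4.6, pandas 2.3.3, scipy 1.17.1 and statsmodels 0.14.6 were used. The variability and likeness steps were tested on simulated data. Intervals on shares of cells cover the sampling of cells only, and PCR reads without molecular identifiers are not independent molecules. No library was called a doublet, and no doublet caller was run.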

Additional observations from a re-analysis of the deposited data

Results flagged for a closer look

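The 12 spike-in-rich libraries were outside the levels reported, and 5 of the 9 genes were above 0 in them. Plau was in 12 of 12 and reached 3014 CPM in library 4. F3 was in 5 and reached 144 CPM in library 43. Plat was in 7 and reached 191 CPM, and F2rl1 was in 2 and reached 15.9 CPM, both in library 56. Plaur was in 5 and reached 285 CPM in library 43. Spike-ins took 71.1% of library 43, which had 9041 genes above 0, and 22.3% of library 56, which had 5966. Tfpi, Thbd, Serpine2 and Serpinb2 were at 0 in all 12. Why Plau was high in this set was not tested.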

How the results depend on the processing

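Of 9 genes, the number above 0 in at least 50% of libraries was 5, and it was 4 at 1 CPM, 3 at 10 CPM, 4 after thinning and 4 over all 62 libraries. The r of F3 and Plaur was 0.742 over all 62 libraries, which adds the 12 spike-in-rich libraries, 7 of them at 0 for each gene, and between 0.321 and 0.361 under the other alternatives. For F3 with Plat, at 0.275 in the 50 cells, the alternatives ran from 0.163 within blocks to 0.467 over all 62 libraries. For Plat with Plaur, at 0.258, they ran from 0.221 to 0.442. The mean level of Plau was 2.55 in the 50 libraries and 3.99 over all 62. Spike-in scaling and size factors moved no mean level by more than its SD over cells. F3 was above Plaur in 30 of 50 cells by coding length and 24 by transcript length, and Plat above Plaur in 19 by coding length and 25 with no length. The other pairs with Plau, Tfpi or Serpine2 had counts that length could hardly move. Leaving out the 2 farthest libraries or library 24, and transcript length, were chosen after seeing the data. The r of Tfpi and Plau was -0.07 without the 2 farthest libraries, that of Thbd and Plat 0.169 (-0.145 with them), and that of F3 and Plau -0.744 over all 62 libraries (0.0898 in the 50). No paired analysis was possible because there was 1 group.

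Depth bears on genes of low level: thinning to 1000000 counts took F2rl1 from 27 to 20 cells and Thbd from 7 to 4. With 1 culture, spread between cultures is unknown.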
